A study of Mus musculus with 20 samples.

Results

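The effect of a tryptophan-free diet on the ileum was compared between mice with an intact microbiota and mice given antibiotics. For each gene the interaction was the log2 fold change of the tryptophan-deficient diet (TDD) against the control diet (CD) in specific pathogen-free (SPF) mice, minus the same log2 fold change in antibiotic-treated (ABX) mice. A positive interaction therefore means that the diet effect was more positive in SPF mice. All 20 of the 20 libraries entered the comparison, with 5 mice in each of the 4 groups CD, TDD, CD+ABX and TDD+ABX. The 16306 of 35204 genes with at least 0.5 CPM (counts scaled to library size) in at least 1 mouse were tested. Levels given below are CPM further adjusted for composition by TMM.

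The mice were female C57Bl6 animals, 7 weeks old, kept for 3 weeks on a defined amino acid diet that either contained tryptophan (CD) or lacked it (TDD). The ABX groups drank water with ampicillin, vancomycin, metronidazole, neomycin and gentamycin, sweetened with sucrose, so that direct effects of the drugs and the loss of bacteria cannot be told apart. The paper reports that TDD caused far milder weight loss with ABX than in SPF mice. Weight loss thus varied along with the interaction, and its part was not tested. RNA came from a piece of terminal ileum, which mixes epithelium, immune cells, muscle and, in some pieces, lymphoid follicles. Total estimated counts per mouse ranged from 36676963 to 58662617 (median 47553758), and p-values measure the spread between the 5 mice of each group.

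Tryptophan is an essential amino acid that mammals take only from food, and intestinal bacteria turn part of it into indoles that host cells sense through the aryl hydrocarbon receptor. Shortage of an amino acid leaves its tRNA uncharged, which activates the kinase GCN2 and, through the transcription factor ATF4, the integrated stress response. Bacterial products also set the resting level of interferon signalling, epithelial defence and lymphocyte recruitment in the ileum.

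To show the regulatory sequence next to genes described below, the 250 bases before the start site are printed for Chac1, which ATF4 is known to induce, and for Bst2 and Oas1a, which interferon is known to induce. They come from RefSeq on GRCm38.p6 and read along the strand of the gene. Capitals mark a match to the C/EBP-ATF element TGATGNAAN in Chac1 (chr2:119350992-119351241, plus strand) and matches to the interferon-stimulated response element (ISRE) in Bst2 (chr8:71537473-71537722, minus strand) and Oas1a (chr5:120907526-120907775, minus strand), each searched on both strands. In Bst2 and Oas1a 2 overlapping matches form 1 run of capitals.
Chac1: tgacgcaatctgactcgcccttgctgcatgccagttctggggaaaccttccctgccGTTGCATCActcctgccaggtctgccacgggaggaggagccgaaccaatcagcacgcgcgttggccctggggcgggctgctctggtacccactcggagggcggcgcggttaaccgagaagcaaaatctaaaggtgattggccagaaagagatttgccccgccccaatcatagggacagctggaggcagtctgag
Bst2: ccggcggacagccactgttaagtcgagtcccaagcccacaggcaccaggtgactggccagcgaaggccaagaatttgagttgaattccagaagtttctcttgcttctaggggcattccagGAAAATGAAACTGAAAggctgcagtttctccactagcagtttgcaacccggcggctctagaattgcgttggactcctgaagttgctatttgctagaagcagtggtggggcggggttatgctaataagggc
Oas1a: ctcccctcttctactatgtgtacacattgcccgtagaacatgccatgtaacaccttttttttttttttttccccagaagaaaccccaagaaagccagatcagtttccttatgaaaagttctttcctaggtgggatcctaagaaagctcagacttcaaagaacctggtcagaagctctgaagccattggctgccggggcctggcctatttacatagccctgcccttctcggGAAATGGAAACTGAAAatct

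Among promoters from 250 bases before to 50 after the start, the interferon element was found in 15 of the 29 interferon list genes with a RefSeq promoter (51.7%) and in 3.99% of all 27025 genes. The C/EBP-ATF element was found in 8 of 28 integrated stress response genes (28.6%) and in 4.50% of all genes. The glucocorticoid response element (GRE) was found in 3 of 18 glucocorticoid response genes (16.7%) and in 0.537% of all genes. The D-box TTANGTAA was found in 1 of 17 clock genes (5.88%) and in 2.72% of all genes. These are matches of letters and not measured binding sites.

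Several libraries stood apart in transcripts of liver, pancreas, lymphoid follicles or smooth muscle, of which follicles and muscle belong to the ileum. The summed level of 14 hepatocyte genes, a list written after the values were seen, was 26.3 to 33.8 CPM in TDD 4, TDD 5, CD+ABX 1 and CD+ABX 2 and 2.58 to 4.30 CPM in the other 16 mice. Albumin (Alb), its most abundant member, was at 14.9, 11, 10.9 and 12.5 CPM in these 4 libraries and at no more than 0.168 CPM elsewhere, and the library numbers of the 4 run consecutively although they belong to 2 groups. Summed levels of 8 exocrine pancreas genes were 197.2 CPM in CD 5 and 0.528 to 1.54 CPM in the other mice. The summed level of 31 B cell follicle genes was 231.5 to 486.4 CPM in 7 mice (CD 2, CD 3, TDD 2 to 5 and TDD+ABX 5) and 38.0 to 102.0 CPM in the other 13. The median diet effect over this list was 1.16 in SPF and 1.52 in ABX-treated mice (SD of its mean log2 CPM between mice of a group 1.01). It had 0 members at an unadjusted interaction p under 0.05, against 4.62% (positive) and 4.29% (negative) of all genes. The paper names its members Cxcl13, Lta and Ltb among genes induced by TDD. Whether follicle content changed with the diet or differed between the pieces taken was not tested. CD 2 also had the lowest summed level of ileal enterocyte genes (17958.8 CPM, most abundant Apoa1) and the highest of smooth muscle genes (3575.9 CPM, most abundant Myh11).

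**Figure D1:**
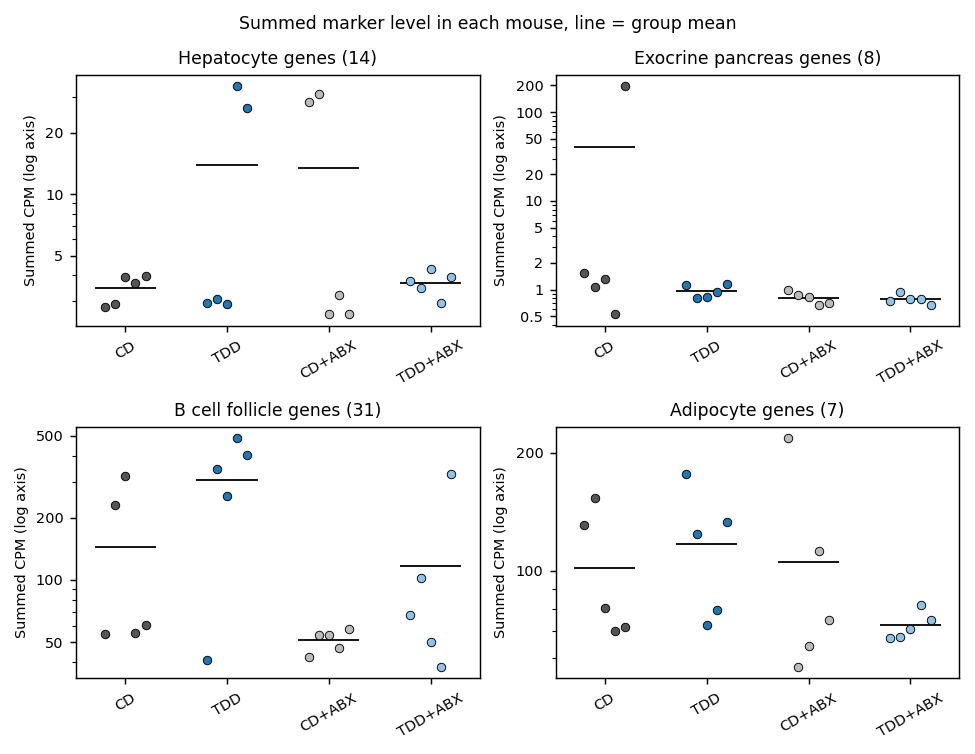
Summed TMM-scaled CPM (log axes) of hepatocyte, exocrine pancreas, B cell follicle and adipocyte genes in each mouse, with group means as lines and the number of genes in parentheses. The 4 libraries with hepatocyte transcripts lie between 26.3 and 33.8 CPM, pancreas genes reach 197.2 CPM in 1 CD mouse, and follicle genes lie at 231.5 CPM or more in 7 mice.

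The interaction is therefore given with and without these libraries where it rests on them. Of the genes tested, 22 had over 90% of their summed CPM in the 4 libraries with hepatocyte transcripts, and 19 of these had a positive interaction at an unadjusted p under 0.05. Leaving out the follicle-rich libraries leaves 1 TDD mouse, TDD 1, which is then assumed to vary like the other groups. It removes TDD 2 to 5 but no CD+ABX mouse, and the follicle level may itself change with the diet. That fit therefore cannot show whether a result depends on follicle content. Its effect sizes are given below without counts of genes passing a threshold.

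By the quasi-likelihood test of edgeR, with p-values adjusted after Benjamini and Hochberg (q), 4 genes had an interaction at q under 0.05 and at least 2-fold, or 0.0245% of the genes tested. These were Chac1, Gzmk, Fkbp5 and Igkv15-103, and Oat and Zc3h7a passed q under 0.05 with smaller differences. At an unadjusted p under 0.05 the interaction was positive for 753 genes (4.62%) and negative for 699 genes (4.29%), and by sign alone it was positive for 8420 and negative for 7886. The split was 304 positive and 1844 negative on log2(TPM + 1) with limma. The diet raised 138 genes (0.846%) and lowered 162 (0.993%) at q under 0.05 and 2-fold in SPF mice, and raised 26 (0.159%) and lowered 28 (0.172%) in ABX-treated mice. The median standard error of an interaction was 0.144 on the log2 scale among the 14048 genes of at least 1 CPM on average.

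Among the 1452 genes with an unadjusted interaction p under 0.05, the diet effects had opposite signs in SPF and ABX-treated mice for 879 (60.5%), against 32.8% of all genes tested. They had the same sign and were smaller with ABX for 541 (37.3%, against 42.7% of all genes), and were larger with ABX for 32 (2.20%, against 24.6%). Since the genes were picked by their interaction, opposite signs are partly set by that choice. A share of about 0.05 of genes would pass this p if no gene had an interaction, so many of the 1452 may be chance. The group mean farthest from the other 3 was that of TDD mice for 663 genes (45.7%, against 34.8% of all genes), of CD mice for 505 (34.8%, against 27.8%), of TDD+ABX mice for 161 (11.1%, against 20.1%) and of CD+ABX mice for 123 (8.47%, against 17.3%).

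**Figure D2:**
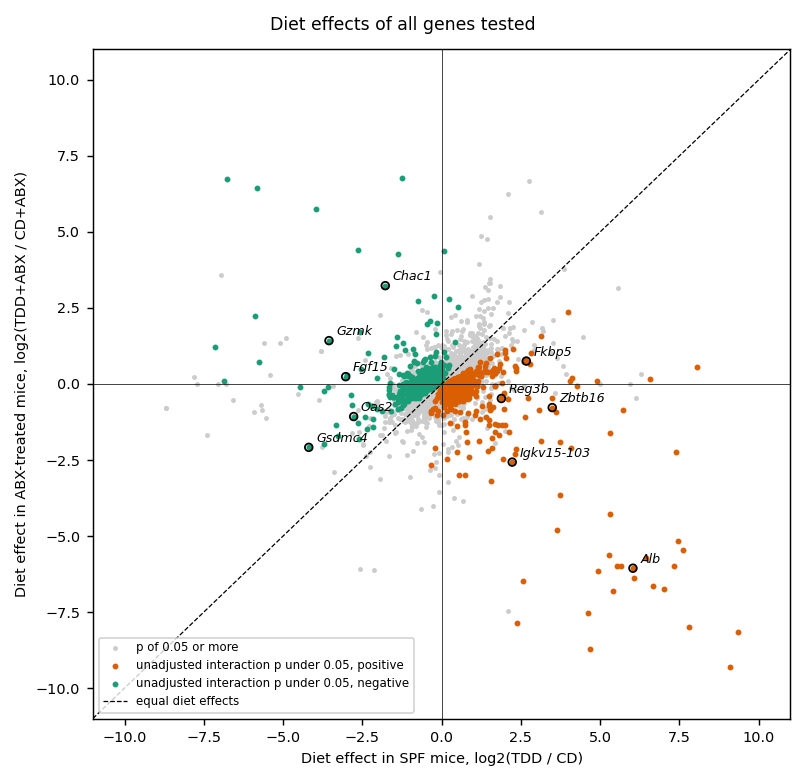
Diet effect in ABX-treated mice (y axis, log2) against diet effect in SPF mice (x axis, log2) for the genes tested, coloured by the sign of the interaction where its unadjusted p is under 0.05, with 1 gene outside the range shown. Chac1 lies at -1.78 and 3.23 and Igkv15-103 at 2.23 and -2.57, and the group of points around Alb at the lower right (over 4 in SPF and under -4 in ABX-treated mice) holds 19 genes, of which 16 had over 90% of their CPM in the 4 libraries with hepatocyte transcripts.

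Chac1 encodes a glutathione-degrading enzyme of the integrated stress response (chr2:119351229-119354381, plus strand, GENCODE M21 on GRCm38). In SPF mice it was at 1.93, 2.40, 0.738, 0.619 and 0.695 CPM in CD mice and at 0.351, 0.275, 0.518, 0.248 and 0.425 CPM in TDD mice. With ABX it was at 0.617, 0.743, 0.696, 0.779 and 1.87 CPM in CD+ABX mice and at 5.48, 2.54, 22.8, 9.14 and 4.50 CPM in TDD+ABX mice. Every TDD mouse lay below every CD mouse, whereas every TDD+ABX mouse lay above every mouse of the other groups. The diet effect was -1.78 in SPF mice (edgeR q = 0.0437) and 3.23 in ABX-treated mice (edgeR q = 0.00573), and the interaction was -5.01 ± 0.78 (SE, n = 5 mice per group; edgeR q = 0.0433). Without TDD+ABX 3 the interaction was -4.29, and it was -4.71 without the libraries with hepatocyte transcripts, where it was no longer called (edgeR q = 0.342). It was called in 9 of 20 fits with 1 mouse left out.

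Gzmk encodes granzyme K, a protease of cytotoxic and memory T cells (chr13:113171608-113225908, minus strand). It was at 1.27, 1.21, 0.618, 5.51 and 8.17 CPM in CD mice and at 0.351, 0.298, 0.186, 0.220 and 0.357 CPM in TDD mice. With ABX it was at 0.132, 0.0719, 0.102, 0.0584 and 0.0943 CPM on CD and at 0.310, 0.340, 0.186, 0.199 and 0.215 CPM on TDD. CD mice lay above all other mice, with CD 4 and CD 5 highest, and the diets did not overlap in either SPF or ABX-treated mice. The diet effect was -3.55 in SPF mice (edgeR q = 0.000397) and 1.42 in ABX-treated mice (edgeR q = 0.337), with an interaction of -4.98 ± 0.87 (SE; edgeR q = 0.0438). Without CD 5, the mouse with pancreatic transcripts, the interaction was -4.34 (edgeR q = 0.0848). The call held in 4 of the 20 fits with 1 mouse left out. It was lost without the hepatocyte libraries (edgeR q = 0.371), where the interaction was -5.13. In whole tissue, fewer T cells and less Gzmk RNA per cell cannot be told apart, here and for the other cell type genes.

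Fkbp5, a co-chaperone of the glucocorticoid receptor that glucocorticoids themselves induce (chr17:28399094-28517527, minus strand), was at 21.9, 29.8, 17.9, 46.6 and 36.0 CPM in CD mice and at 194, 187, 190, 197 and 201 CPM in TDD mice. With ABX it was at 71.4, 144, 81.6, 73.6 and 74.6 CPM on CD and at 157, 184, 178, 133 and 98.2 CPM on TDD. All TDD mice were far above all CD mice, whereas the diets overlapped with ABX through CD+ABX 2. The diet effect was 2.67 in SPF mice (edgeR q = 4.34e-06) and 0.75 in ABX-treated mice (edgeR q = 0.109), and the interaction was 1.92 ± 0.33 (SE; edgeR q = 0.0433). It was called in 4 of the 20 fits with 1 mouse left out. Without the hepatocyte libraries, which include CD+ABX 2, it was 1.67 and not called (edgeR q = 0.342). It was also 1.67 without CD+ABX 2 alone (edgeR q = 0.0785).

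Igkv15-103 is an immunoglobulin kappa variable segment (chr6:68437440-68437925, plus strand), part of a family of near-identical copies between which reads may be split. It was at 1.96, 5.21, 3.63, 3.03 and 3.81 CPM in CD mice and at 2.76, 46.4, 8.58, 17.1 and 8.02 CPM in TDD mice. It was at 19.9, 11.3, 11.1, 23.5 and 5.85 CPM in CD+ABX mice and at 3.39, 2.44, 2.77, 0.935 and 2.56 CPM in TDD+ABX mice. Values above those of all CD mice were seen in 4 TDD mice and in all CD+ABX mice, and the diets overlapped in SPF mice and not with ABX. The interaction was 4.80 ± 0.81 (SE; edgeR q = 0.0433), and it was 2.50 without the 7 libraries rich in follicle transcripts. The call held in 7 of the 20 fits with 1 mouse left out. It was lost without the hepatocyte libraries (edgeR q = 0.342), where the interaction was 4.91. Without the follicle-rich libraries, a fit that leaves 1 TDD mouse, the interaction was -4.99 for Chac1, -5.29 for Gzmk and 1.60 for Fkbp5.

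**Figure D3:**
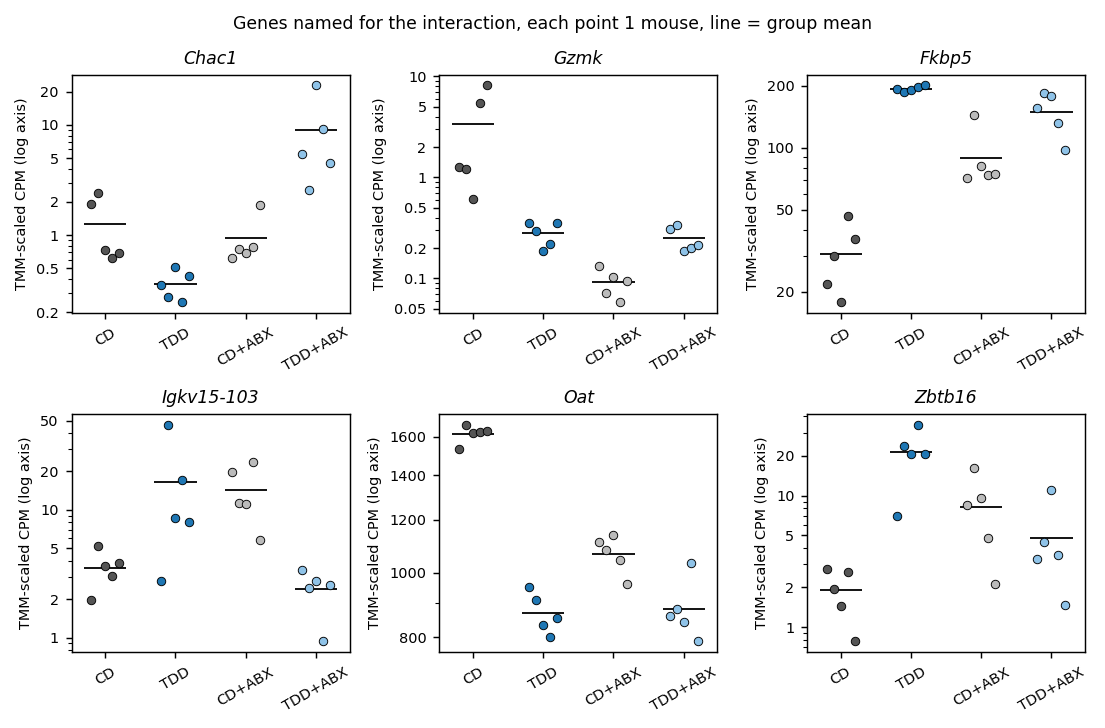
TMM-scaled CPM (log axes) of Chac1, Gzmk, Fkbp5, Igkv15-103, Oat and Zbtb16 in each of the 20 mice, with group means as lines. Chac1 is highest in the 5 TDD+ABX mice (2.54 to 22.8 CPM), Gzmk and Oat are highest in the 5 CD mice, and Fkbp5 is lowest in CD mice (17.9 to 46.6 CPM).

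Oat, a mitochondrial enzyme that links ornithine with proline synthesis, was at 1533, 1669, 1620, 1629 and 1635 CPM in CD mice and at 951, 911, 834, 801 and 856 CPM in TDD mice. It was at 1110, 1082, 1141, 1044 and 963 CPM in CD+ABX mice and at 860, 882, 844, 1035 and 789 CPM in TDD+ABX mice. CD mice stood clear of all other groups, and the interaction was -0.62 ± 0.10 (SE; edgeR q = 0.0433). Aldh18a1, which makes the common precursor of proline and ornithine, was also highest in CD mice. It was at 381, 292, 437, 296 and 375 CPM in CD mice, at 124, 171, 145, 138 and 142 CPM in TDD mice, at 165, 173, 201, 204 and 132 CPM in CD+ABX mice and at 134, 120, 146, 168 and 127 CPM in TDD+ABX mice. Its diet effect was -1.30 in SPF mice (edgeR q = 1.11e-05) and -0.33 in ABX-treated mice (edgeR q = 0.225), and its interaction of -0.97 ± 0.19 (SE) missed the threshold (edgeR q = 0.0625). The interaction of Aldh18a1 was called on log2(TPM + 1) and without any 1 of CD 2, CD 4, CD+ABX 4 and TDD+ABX 2.

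Zbtb16, a zinc finger transcription factor of innate-like lymphocytes that glucocorticoids also induce, was at 2.76, 1.93, 1.44, 2.64 and 0.779 CPM in CD mice and at 7, 23.7, 20.6, 34.6 and 20.7 CPM in TDD mice. With ABX it was at 8.40, 16.1, 9.58, 4.77 and 2.11 CPM on CD and at 3.31, 4.40, 11.1, 3.54 and 1.46 CPM on TDD. The SPF diets did not overlap and the ABX diets did, with an interaction of 4.27 ± 0.77 (SE; edgeR q = 0.0545). Zbtb16 was called with upper-quartile scaling and without any 1 of CD 2, CD 4, CD+ABX 4, CD+ABX 5, TDD 1 and TDD+ABX 3. Tmem119, a membrane protein best known from microglia and bone cells, was at 9.97, 11.1, 10.9, 8.37 and 11.6 CPM in CD mice, at 5.32, 6.62, 5.28, 6.08 and 7.38 CPM in TDD mice, at 7.85, 6.86, 8.09, 6.11 and 6.62 CPM in CD+ABX mice and at 6.16, 8.57, 7.48, 8.02 and 7.45 CPM in TDD+ABX mice. Here too the SPF diets were apart and the ABX diets were not, with an interaction of -0.84 ± 0.17 (SE; edgeR q = 0.0645).

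Genes with a positive interaction and a small spread moved by less than 2-fold. Zc3h7a, an RNA-binding zinc finger protein, was at 127, 117, 123, 131 and 132 CPM in CD mice, at 152, 154, 143, 155 and 140 CPM in TDD mice, at 148, 153, 149, 148 and 161 CPM in CD+ABX mice and at 136, 146, 128, 135 and 127 CPM in TDD+ABX mice. CD and TDD+ABX were thus the low groups and TDD and CD+ABX the high ones, with an interaction of 0.42 ± 0.07 (SE; edgeR q = 0.0433). The interaction was 0.41 with RLE scaling (edgeR q = 0.0770) and 0.42 with the replicate block (edgeR q = 0.118), above the q threshold in both. Slc33a1, which carries acetyl-CoA into the endoplasmic reticulum, was at 49.6, 48.6, 46.5, 53.6 and 51.4 CPM in CD mice, at 63.0, 59.9, 57.5, 57.2 and 54.7 CPM in TDD mice, at 60.6, 61.0, 56.9, 60 and 65.4 CPM in CD+ABX mice and at 54.2, 58.2, 54.1, 51.1 and 48.8 CPM in TDD+ABX mice. Its groups were ordered in the same way, with an overlap between the ABX diets and an interaction of 0.42 ± 0.08 (SE; edgeR q = 0.0570). Tmem248 was at 32.2, 34.5, 30.4, 32.2 and 31.9 CPM in CD mice, at 40.9, 40.3, 39.0, 41.5 and 40.0 CPM in TDD mice, at 34.9, 35.9, 37.7, 32.0 and 34.4 CPM in CD+ABX mice and at 33.4, 35.6, 32.4, 34.6 and 29.6 CPM in TDD+ABX mice. TDD mice alone stood above the rest (interaction 0.40 ± 0.07, SE; edgeR q = 0.0562).

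The next genes in each direction had interactions at edgeR q of 0.0570 to 0.0928. On the positive side these were Trabd (0.54), Adamtsl4 (0.51) and 3 genes of protein folding in the endoplasmic reticulum. The latter were Selenos (0.48), Ficd (0.70) and Xbp1 (0.54), the transcription factor of the unfolded protein response. On the negative side were Cd209a (-1.58), a lectin of dendritic cells, Pycrl (-0.40), a reductase of proline synthesis, the alkaline phosphatase Alppl2 (-1.35), the BMP modulator Twsg1 (-0.37) and the chloride channel protein Clic6 (-0.74). All 5 on the negative side were higher in CD mice than in TDD mice without overlap, and Alppl2 was also lower on TDD with ABX (SPF -2.63, edgeR q = 9.42e-07, and ABX -1.28, edgeR q = 0.00322).

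The interferon-stimulated genes had mostly negative interactions. Of 40 tested list members, 20 fell and 0 rose with TDD in SPF mice (0.993% of all genes fell), and 1 fell and 0 rose in ABX-treated mice (0.172% fell). The interaction was negative for 39 members, with a list median of -0.46 against 0.01 over all genes. It passed an unadjusted p under 0.05 for 11, each time negative (4.29% of all genes). Members of a list come from the same mice and can vary together, so counts of members are not counts of independent observations, here and for the other lists. The mean log2 CPM of the interferon list had an SD of 0.41 between mice of a group. Ifi44, an interferon-induced protein, was at 12.6, 4.02, 14.1, 23.1 and 47.1 CPM in CD mice, at 1.12 to 3.54 CPM in TDD mice, at 4.10 to 10.3 CPM in CD+ABX mice and at 1.75 to 2.98 CPM in TDD+ABX mice (interaction -2.0 ± 0.64, SE; edgeR q = 0.298). Oas2, which makes the 2-5A signal that activates RNase L, had an interaction of -1.70 ± 0.59 (edgeR q = 0.336). Oas1a, a related enzyme, was at 53.2, 21.1, 71.5, 82.4 and 111 CPM in CD mice, at 15.2 to 37.9 CPM in TDD mice, at 41.7 to 87.4 CPM in CD+ABX mice and at 30.8 to 58.8 CPM in TDD+ABX mice (interaction -1.12 ± 0.46, SE; edgeR q = 0.442), with the diets overlapping in both settings. Bst2, which tethers budding viruses, had an interaction of -1.0 ± 0.34 (edgeR q = 0.326). Oas1e, one of several near-identical Oas1 genes, was at -3.49 ± 1.16 (edgeR q = 0.318).

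CD 2, which had the lowest enterocyte and highest muscle levels, also had the lowest Ifi44 (4.02 CPM) and Oas2 (7.58 CPM) of the CD mice, and CD 5 the highest. The number of interferon list members with an unadjusted interaction p under 0.05 was 31 without CD 2, 6 without CD 5 and 7 without CD+ABX 1, all negative. The list median was -0.50 without the follicle-rich libraries. The 1 call in ABX-treated mice was lost without the hepatocyte libraries and in 17 of the 20 fits with 1 mouse left out. The part of tissue composition in this difference was not tested.

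Type 1 chemokines, their receptors and guanylate-binding proteins also had mostly negative interactions. Of 29 tested members, 9 fell in SPF mice (0.993% of all genes) and 1 with ABX (0.172%), and 11 had a negative and 0 a positive interaction at an unadjusted p under 0.05 (4.29% and 4.62% of all genes), with a median of -0.40 (-0.62 without the follicle-rich libraries). They included the chemokine receptor Cxcr3 (-1.32 ± 0.38, edgeR q = 0.233) and the interferon-induced GTPases Gbp6 (-1.20 ± 0.37, edgeR q = 0.284) and Gbp3 (-0.63 ± 0.21, edgeR q = 0.320). Gbp6 was at 27.1, 11.7, 30.7, 37.1 and 51.2 CPM in CD mice, at 6.13 to 10.5 CPM in TDD mice, at 10.3 to 15.2 CPM in CD+ABX mice and at 4.96 to 8.58 CPM in TDD+ABX mice, so that the diets did not overlap in either setting. The count of negative members was 18 without CD 2, 8 without CD 5 and 7 without TDD+ABX 2. Members that fell in SPF mice numbered 5 without CD 5, and the 1 call with ABX was lost in 10 of the 20 fits with 1 mouse left out.

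Among 24 cytotoxic lymphocyte genes, 5 had a negative interaction and 1 a positive one at an unadjusted p under 0.05, against 4.29% and 4.62% of all genes, and 3 fell with the diet in SPF mice (0.993% of all genes) against 0 with ABX. Cd8b1, the beta chain of the CD8 co-receptor, was at 2.01, 1.63, 2.11, 6.26 and 10.4 CPM in CD mice, at 0.151 to 1.43 CPM in TDD mice and at 0.144 to 1.15 CPM with ABX (interaction -3.34 ± 0.82, SE; edgeR q = 0.136). Nkg7, a granule protein, had an interaction of -1.22 ± 0.44 (edgeR q = 0.358). Trdc, the constant region of the T cell receptor delta chain, was the positive member (0.85 ± 0.23, edgeR q = 0.188) and was at 4.18 to 5.81 CPM in TDD mice and at 2.22 to 4.08 CPM in all others. The summed level of the 24 genes was 184.5 CPM in CD 4, 289.2 CPM in CD 5 and 42.2 to 100.5 CPM in the other mice, with Gzma most abundant. The negative members numbered 9 without CD 2, 8 without CD 3, 3 without CD 4 or CD 5, and 2 without the libraries with hepatocyte transcripts. Those that fell in SPF mice numbered 6 without CD 2 or CD 3 and 5 without CD 1.

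Epithelial genes that bacteria are known to induce had mostly positive interactions. Of 17 tested members, 8 had a positive and 1 a negative interaction at an unadjusted p under 0.05 (4.62% and 4.29% of all genes), with median diet effects of 0.55 without ABX and -0.30 with ABX, and 5 rose with TDD in SPF mice (0.846% of all genes) against 0 with ABX. Tifa, an adaptor in the response to bacterial sugar metabolites, was at 46.6 to 60 CPM in CD mice, at 65.8 to 151 CPM in TDD mice, at 29.9 to 50.4 CPM in CD+ABX mice and at 25.0 to 32.6 CPM in TDD+ABX mice (interaction 1.10 ± 0.26, SE; edgeR q = 0.121). Reg3b, an antibacterial lectin, was at 3197, 2353, 577, 7583 and 519 CPM in TDD mice and at 636 to 1064 CPM in CD mice, so that 3 TDD mice were high and 2 lay below all CD mice. Its interaction was 2.36 ± 0.79 (SE; edgeR q = 0.320). Il18, an epithelial cytokine, had an interaction of 0.61 ± 0.20 (edgeR q = 0.308) and Fut2, which fucosylates the epithelial surface, of 0.91 ± 0.32 (edgeR q = 0.332). The positive members numbered 4 without TDD 4 and 5 without any 1 of CD 1, CD 4, CD+ABX 4 and TDD+ABX 4. Those that rose in SPF mice numbered 1 without TDD 4 or the hepatocyte libraries, 2 without CD 1, and 3 without any 1 of CD 3, CD 4 and CD 5.

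**Figure D4:**
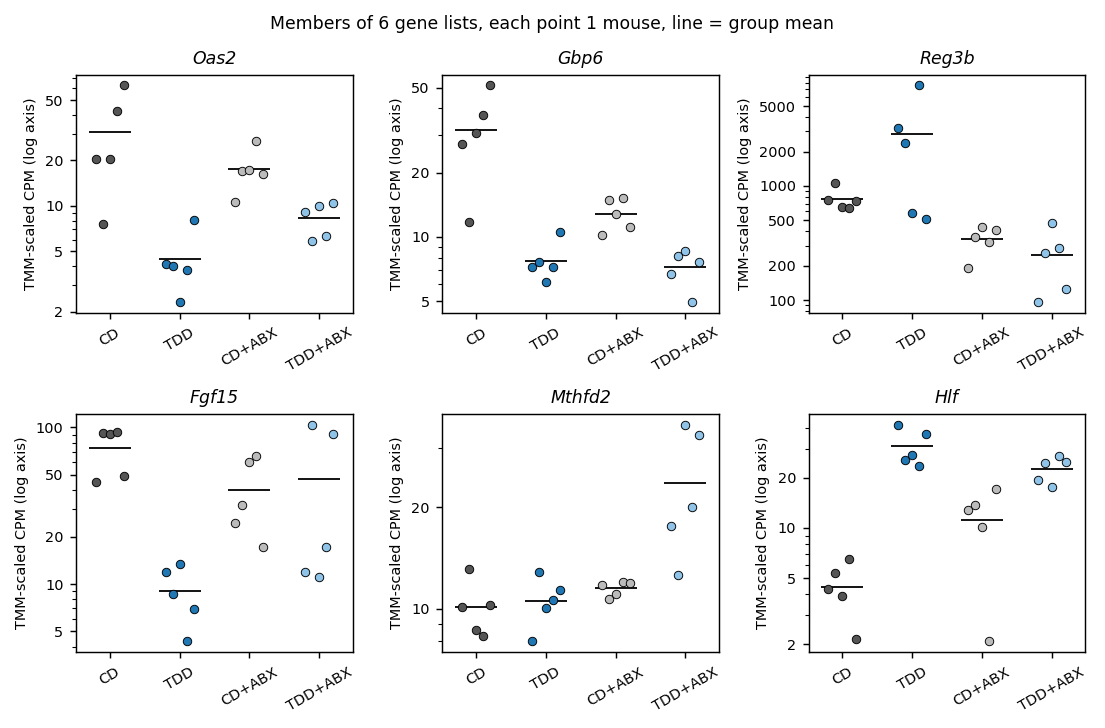
TMM-scaled CPM (log axes) of Oas2, Gbp6, Reg3b, Fgf15, Mthfd2 and Hlf in each mouse, with group means as lines. Fgf15 is at 13.5 CPM or less in all TDD mice, Mthfd2 lies above all other mice in 4 of 5 TDD+ABX mice (group range 12.6 to 35.2 CPM), and Hlf is low in CD mice and in 1 CD+ABX mouse.

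The 33 tested integrated stress response genes did not move as 1 block. In SPF mice 3 rose and 2 fell with TDD (0.846% and 0.993% of all genes), and in ABX-treated mice 5 rose and 1 fell (0.159% and 0.172%). The interaction was negative for 7 and positive for 1 at an unadjusted p under 0.05, against 4.29% and 4.62% of all genes. Mthfd2, a mitochondrial folate enzyme, was at 8.30 to 13.1 CPM in CD mice, 8.01 to 12.9 CPM in TDD mice, 10.7 to 12.0 CPM in CD+ABX mice and at 17.6, 12.6, 35.2, 20 and 32.8 CPM in TDD+ABX mice. Only its ABX diets were apart (ABX 1.04, edgeR q = 0.0186, and interaction -0.97 ± 0.30, SE, edgeR q = 0.281). Cth, which makes cysteine, had an interaction of -0.53 ± 0.19 (edgeR q = 0.358). Asns, which makes asparagine and is a standard ATF4 target, had nearly equal diet effects of 0.97 and 0.88 (interaction 0.09 ± 0.31, edgeR q = 0.963), and those of Trib3, an ATF4-induced pseudokinase, were 1.22 and 0.89 (interaction 0.33 ± 0.30, edgeR q = 0.822). The members that rose with ABX numbered 0 without the hepatocyte libraries, 2 without TDD+ABX 3, 3 without any 1 of CD+ABX 3, CD+ABX 4 and TDD+ABX 5, and 8 without TDD+ABX 2. In SPF mice 5 rose without CD 2. With 1 mouse left out, the 2 that fell in SPF mice became 1 in 8 of 20 fits, the 1 that fell with ABX became 0 in 4, and the 1 positive interaction became 0 or 2 in 13.

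The enzymes that charge tRNAs, of which several are ATF4 targets, had a negative interaction in 19 of 20, with a median of -0.18. An unadjusted p under 0.05 was passed in 6, all negative (4.29% of all genes). The mean log2 CPM of the list had an SD of 0.095 between mice of a group. The cysteine enzyme Cars was at 18.9 to 24.8 CPM in CD mice and 11 to 15.0 CPM in TDD mice, and at 24.3 to 28.0 CPM in CD+ABX mice and 18.6 to 40.2 CPM in TDD+ABX mice (interaction -0.93 ± 0.24, SE; edgeR q = 0.156). Yars (-0.53 ± 0.15, edgeR q = 0.225), Mars (-0.51 ± 0.17, edgeR q = 0.312) and Aars (-0.41 ± 0.14, edgeR q = 0.332) charge the tRNAs of tyrosine, methionine and alanine. The list median was -0.37 without the follicle-rich libraries.

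Of 22 tested glucocorticoid response genes, 8 rose with TDD in SPF mice (0.846% of all genes) against 0 with ABX, and 8 had a positive and 0 a negative interaction at an unadjusted p under 0.05 (4.62% and 4.29% of all genes), with a median of 0.37. Besides Fkbp5 and Zbtb16 these included the transcription factors Klf15 and Hif3a. Klf15 was at 2.55 to 6.65 CPM in CD mice and 12.7 to 18.7 CPM in TDD mice, and at 6.37 to 11.2 CPM and 10.7 to 11.6 CPM on the same diets with ABX (interaction 1.31 ± 0.27, SE; edgeR q = 0.0838). Hif3a was at 1.04 to 1.56 CPM in CD mice and 4.29 to 5.53 CPM in TDD mice (interaction 1.17 ± 0.33, SE; edgeR q = 0.220). Tsc22d3, another classical glucocorticoid target, had an interaction of -0.21 ± 0.25 (edgeR q = 0.869). The list median was 0.20 without CD 2, 0.59 without the hepatocyte libraries and 0.60 without the follicle-rich libraries.

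Of 21 tested clock genes, 9 rose and 2 fell with TDD in SPF mice (0.846% and 0.993% of all genes) and 3 rose and 1 fell in ABX-treated mice (0.159% and 0.172%). At an unadjusted p under 0.05, 6 had a positive and 0 a negative interaction, against 4.62% and 4.29% of all genes. The negative ones numbered 2 without CD 2 or CD+ABX 4, and 1 without any 1 of CD+ABX 5, TDD 1 and TDD+ABX 3. Hlf, a clock output factor of the PAR bZIP family, was at 4.30, 5.33, 3.91, 6.52 and 2.15 CPM in CD mice, at 23.6 to 41.8 CPM in TDD mice, at 12.9, 13.8, 10.1, 2.08 and 17.0 CPM in CD+ABX mice and at 17.7 to 27.0 CPM in TDD+ABX mice (interaction 1.78 ± 0.51, SE; edgeR q = 0.214). CD+ABX 4 was at the level of CD mice for Hlf, for Dbp (3.99 CPM, against 31.3 to 63.9 CPM in the other CD+ABX mice) and for the core clock repressor Per2 (15.9 CPM, against 36.9 to 52.6 CPM). Interactions were 1.54 ± 0.64 for Dbp (edgeR q = 0.463), 0.77 ± 0.30 for Per2 (edgeR q = 0.425) and 0.78 ± 0.25 for the deubiquitinase Usp2 (edgeR q = 0.298). Without CD+ABX 4, 14 genes were called in the interaction over all genes tested, Hlf among them. The positive clock members numbered 3 without TDD 1 and 2 without the hepatocyte libraries or CD+ABX 5. In ABX-treated mice 0 clock genes were called without the hepatocyte libraries, 0 rose without CD+ABX 3 and 1 rose without TDD+ABX 5. The 1 that fell with ABX became 0 without any 1 of CD+ABX 4, TDD+ABX 1, TDD+ABX 2, TDD+ABX 4 and TDD+ABX 5 and 2 without CD+ABX 5.

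**Figure D5:**
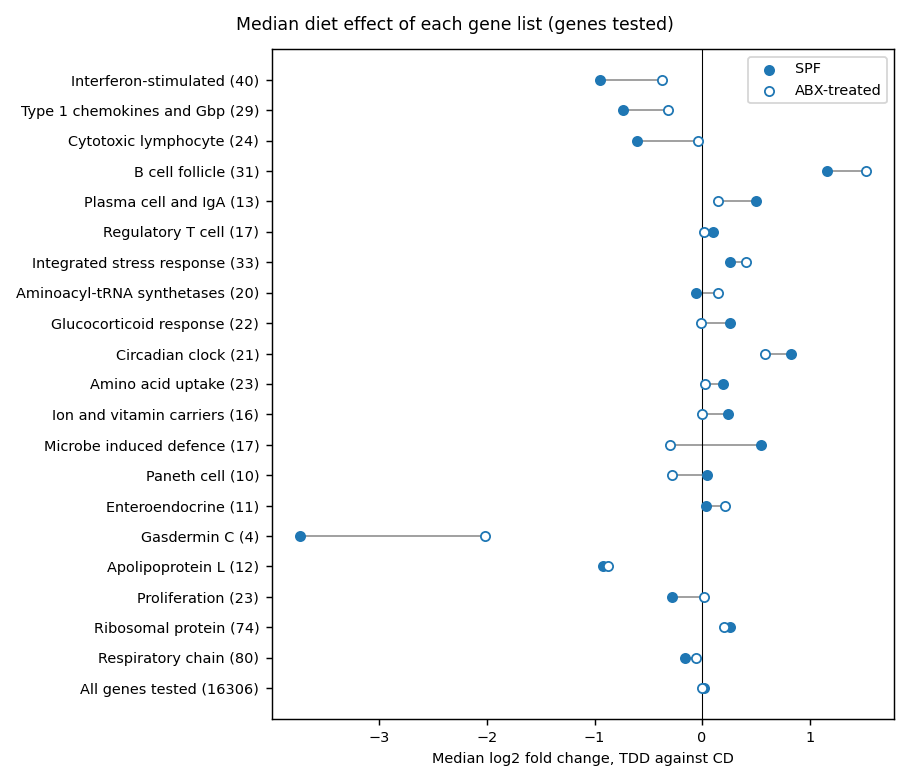
Median log2 fold change of TDD against CD over the tested members of each gene list, in SPF mice (filled) and ABX-treated mice (open), with the number of genes in parentheses. Interferon-stimulated genes lie at -0.95 and -0.37 and microbe-induced defence genes at 0.55 and -0.30, while the median over all genes tested lies near 0 in both.

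Of 11 bile acid signalling genes, 2 had a positive and 2 a negative interaction at an unadjusted p under 0.05, against 4.62% and 4.29% of all genes. The negative pair were targets of the bile acid receptor FXR that also fell in SPF mice. Fgf15, the ileal hormone that restrains bile acid synthesis in liver, was at 44.7, 92.4, 90.2, 92.9 and 48.8 CPM in CD mice and at 11.9, 8.66, 13.5, 4.32 and 6.90 CPM in TDD mice. With ABX it was at 17.2 to 65.4 CPM on CD and at 11.9, 104, 11.1, 17.3 and 91.1 CPM on TDD. TDD mice were all low, and TDD+ABX mice fell into 3 low and 2 high animals (interaction -3.27 ± 0.82, SE; edgeR q = 0.139). Nr0b2, a repressor that FXR induces, had an interaction of -2.49 ± 0.69 (edgeR q = 0.194). The positive pair were bile acid transporters, Slc51b (0.54 ± 0.18, edgeR q = 0.324) at the basal side and Slc10a2 (1.41 ± 0.60, edgeR q = 0.479) at the apical side of enterocytes. Positive members numbered 1 without any 1 of CD 1, CD 3, CD+ABX 5 and TDD 3.

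Several carriers of the apical membrane were lowest in CD mice. Of 16 ion and vitamin carriers, 5 rose and 1 fell with TDD in SPF mice (0.846% and 0.993% of all genes) and 0 rose and 1 fell with ABX (0.159% and 0.172%). At an unadjusted p under 0.05, 5 had a positive and 0 a negative interaction, against 4.62% and 4.29% of all genes. The citrate carrier Slc13a2 was at 101 to 213 CPM in CD mice, 384 to 501 CPM in TDD mice, 199 to 652 CPM in CD+ABX mice and 447 to 815 CPM in TDD+ABX mice (interaction 1.14 ± 0.34, SE; edgeR q = 0.265). The others named were the vitamin carrier Slc5a6 (0.70 ± 0.22, edgeR q = 0.281), the cation exporter Slc47a1 (0.82 ± 0.27, edgeR q = 0.314) and the sulfate carrier Slc13a1 (1.16 ± 0.43, edgeR q = 0.370). Among 23 genes of amino acid uptake 3 had a positive and 2 a negative interaction at an unadjusted p under 0.05, against 4.62% and 4.29% of all genes. Slc6a19, the main carrier of tryptophan and other neutral amino acids, had an interaction of 0.65 ± 0.29 (edgeR q = 0.498), and its relative Slc6a18, which was at 0.140 to 0.276 CPM in CD mice and 0.697 to 2.12 CPM in all others, of 1.92 ± 0.48 (edgeR q = 0.139). At the same p, the positive amino acid uptake genes numbered 1 to 7 when 1 mouse was left out, with 7 without CD+ABX 4, 6 without CD 4, and 1 without any 1 of CD 3, CD 5, CD+ABX 2, CD+ABX 5, TDD 3, TDD 4, TDD+ABX 1, TDD+ABX 3 and TDD+ABX 4, and the negative ones numbered 1 in 12 of these 20 fits. The ion and vitamin carriers that rose in SPF mice numbered 3 without the hepatocyte libraries or TDD 4. The 1 carrier that fell in SPF mice became 2 without CD 2 or TDD 1, and the 1 that fell with ABX became 0 without any 1 of CD+ABX 4, TDD+ABX 1, TDD+ABX 2 and TDD+ABX 5.

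The gasdermin C and apolipoprotein L genes called with the diet all fell. The 4 gasdermin C genes, pore-forming proteins of the epithelium, all fell in SPF mice (0.993% of all genes) and 1 fell with ABX (0.172%), and Gsdmc4 was at 31.0 to 121 CPM in CD mice, 1.66 to 4.91 CPM in TDD mice, 31.0 to 148 CPM in CD+ABX mice and 9.15 to 34.8 CPM in TDD+ABX mice (interaction -2.11 ± 0.73, SE; edgeR q = 0.332). The members with an unadjusted interaction p under 0.05 numbered 3 with all mice, 1 in 9 of the 20 fits with 1 mouse left out (CD 2 and CD 5 among them) and 0 without the hepatocyte libraries. The median interaction of the 4 was -1.71 with all mice and -1.32 without the follicle-rich libraries. The 1 call with ABX was lost in 8 of the 20 fits with 1 mouse left out. Of 12 apolipoprotein L genes, 6 fell in SPF mice and 5 with ABX, with 3 negative interactions at an unadjusted p under 0.05 (4.29% of all genes), and Apol10b had the smallest p (-0.76 ± 0.23, edgeR q = 0.268). The negative interactions numbered 5 without CD 2, and 1, with 2 positive, without the hepatocyte libraries. Members of both families are close copies, and reads may be split between them.

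Cell division genes had a negative interaction in 23 of 23, of which 6 passed an unadjusted p under 0.05, against 4.29% of all genes. The list median was -0.33, with diet effects of -0.28 in SPF and 0.02 in ABX-treated mice. The mean log2 CPM of the list had an SD of 0.22 between mice of a group. Mcm2, a subunit of the replicative helicase, was at 35.5 to 42.9 CPM in CD mice and 22.6 to 35.2 CPM in TDD mice, and at 25.0 to 37.8 CPM and 32.7 to 44.5 CPM with ABX (interaction -0.59 ± 0.17, SE; edgeR q = 0.228). The count at this p was 10 without the hepatocyte libraries (median -0.52), and the median was -0.64 without the follicle-rich libraries.

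Of 89 immunoglobulin kappa variable segments, 16 had a positive and 4 a negative interaction at an unadjusted p under 0.05, and of 92 heavy chain segments 15 and 6, against 4.62% and 4.29% of all genes. Igkv3-3 was at 5.14, 3.30, 2.15, 4.76 and 1.05 CPM in TDD mice and at no more than 0.123 CPM in any other mouse (interaction edgeR q = 0.139). Igkv5-48 was at 12.3 to 30.1 CPM in CD mice and at 3.02 to 11.7 CPM in all others (interaction -2.25 ± 0.57, SE; edgeR q = 0.139). Median interactions were 0.93 for kappa and 0.42 for heavy chain segments, and -1.20 and -1.39 without the follicle-rich libraries. At the same p 9 heavy chain segments were positive without CD 4 or TDD+ABX 1. Among 17 regulatory T cell genes 1 had a positive interaction at an unadjusted p under 0.05, against 4.62% of all genes. This was Il2ra, the high-affinity interleukin-2 receptor chain (1.15 ± 0.31, edgeR q = 0.187), which was at 1.38 to 2.67 CPM in TDD mice and 0.606 to 1.54 CPM elsewhere. The positive count was 2 without any 1 of CD 2, CD 3, TDD 1, TDD 2 and TDD+ABX 5, and 1 member was negative without CD 2. Foxp3 itself was at 1.21 ± 0.65 (edgeR q = 0.615).

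Among 18 tested genes of kynurenine and serotonin metabolism, 2 had a positive and 1 a negative interaction at an unadjusted p under 0.05, against 4.62% and 4.29% of all genes. Ido1, which opens the kynurenine pathway, had nearly equal diet effects of -1.42 and -1.57 (interaction 0.14 ± 0.51, edgeR q = 0.964). The serotonin transporter Slc6a4 was at 0.32 (edgeR q = 0.336) and Ddc, which makes serotonin from its precursor, at -0.42 (edgeR q = 0.425). Tdo2, at 3.27, is also a hepatocyte gene and was highest in the 4 libraries with hepatocyte transcripts. The 2 positive genes became 1 in 9 of 20 fits with 1 mouse left out and without the hepatocyte libraries. The 1 negative gene became 2 without CD 2, 3 without CD+ABX 5 and 0 without the hepatocyte libraries. Of 8 aryl hydrocarbon receptor target genes, 1 had a negative interaction at an unadjusted p under 0.05, against 4.29% of all genes. This was Ugt1a6a (-0.44, edgeR q = 0.309), and the count was 2 without any 1 of CD 2, CD+ABX 5 and TDD+ABX 2.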

How the data were processed

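Polyadenylated RNA from the terminal ileum of 20 mice was sequenced. Per the submitters' processing notes and the study's methods, reads were assigned to the mouse transcriptome (GRCm38, mm10) with kallisto 0.44.0, and the study analysed them in iDEP. The authors deposited estimated counts per gene, as whole numbers and not normalized, together with transcript tables of estimated counts and TPM. How transcripts were summed to genes is not given in the sources used here. Replicate numbers were taken from the labels.

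The deposited gene counts were scaled by TMM and fitted with edgeR 4.0.16 (R 4.3.3), with the 4 groups in 1 quasi-likelihood fit. The filter, applied before TMM scaling, kept genes that reached 0.5 CPM in 1 mouse or more. A gene was called at Benjamini-Hochberg q under 0.05 and at least 2-fold. Standard errors were the log2 fold change divided by the square root of its F statistic, levels are TMM-scaled CPM of each mouse, and totals were 36676963 counts or more. Lists are described by counts and medians, with no test over a list. The gene sets, 42 lists and 3 written after the values were seen, and the members named were chosen with earlier results of these data known. Named genes were those called in the interaction, those called in both diet contrasts in opposite directions, the 10 smallest interaction p in each direction among genes with a group mean of at least 1 CPM and an informative symbol, and up to 4 members per list. Genes outside this rule (Oas1a, Asns, Trib3, Tsc22d3, Ido1, Alb and members of the 3 added lists) were named after their values were seen, and 1 gene that the rule names is not reported here.

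Alternatives were DESeq2 1.42.0, limma-voom (limma 3.58.1), RLE and upper-quartile scaling, other filters, no fold limit, limma on log2(TPM + 1), a replicate block, and leaving out each mouse. Leaving out the hepatocyte or the follicle libraries was added after seeing the data. Summaries were made with Python 3.11.15.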

Additional observations from a re-analysis of the deposited data

Results flagged for a closer look

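The interaction was called for Chac1 (-5.01), Igkv15-103 (4.80), Fkbp5 (1.92) and Gzmk (-4.98), a test of the difference between the diet effects in SPF and ABX-treated mice. None of the 4 was called with RLE scaling, limma-voom, the replicate block or without the hepatocyte libraries, although each kept its sign there. With RLE scaling the interactions, in the same order, were -5.01, 4.78, 1.91 and -4.99 (edgeR q of 0.0512 to 0.0535). Without the hepatocyte libraries they were -4.71, 4.91, 1.67 and -5.13. Without the follicle-rich libraries, a fit that leaves 1 TDD mouse, they were -4.99, 2.50, 1.60 and -5.29.

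In 35 of 432 groups of 5 mice checked, 1 mouse lay far from the other 4, and chance alone marks about 1 in 20 such groups. CD+ABX 5 was the highest of its group for Chac1 (1.87 CPM), Xbp1 (238.1 CPM), Slc5a6 (56.7 CPM) and Slc13a1 (111.9 CPM) and the lowest for Mcm2 (25.0 CPM). CD+ABX 2 was highest for Fkbp5 (144 CPM), Hif3a (2.78 CPM) and Tifa (50.4 CPM) and lowest for Pycrl (41.7 CPM). CD 5, the library with pancreatic transcripts, was highest for Cela2a (34.1 CPM), Amy2a5 (27.5 CPM), Cpb1 (21.4 CPM), Twsg1 (69.1 CPM) and Col6a3 (130.5 CPM). TDD 1 was highest for Tifa (150.7 CPM), Plin2 (66.4 CPM) and Gfap (2.69 CPM) and lowest for Cd68 (4.29 CPM).

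The other single mice were spread over the groups. Among SPF mice they were CD 2 for Cyp2e1 (6.37 CPM) and Rpl35 (197.4 CPM), CD 3 for Clic6 (46.9 CPM) and Cyp3a44 (7.14 CPM), TDD 4 for Slc6a18 (2.12 CPM) and Ndufs8 (62.4 CPM), and TDD 5 for Ifi44 (3.54 CPM), all highest. CD 4 was lowest for Hbb-bs (10.8 CPM) and TDD 3 for Ndufa9 (84.1 CPM). With ABX, the highest were CD+ABX 1 for Cyp2e1 (12.8 CPM), CD+ABX 3 for Cxcr3 (1.23 CPM), TDD+ABX 1 for Defa26 (41.2 CPM) and Clca1 (1479 CPM), and TDD+ABX 5 for Nr0b2 (3.83 CPM). The lowest were CD+ABX 4 for Gip (23.9 CPM), TDD+ABX 2 for Il18 (34.6 CPM) and TDD+ABX 4 for Ifi44 (1.75 CPM).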

How the results depend on the processing

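The number of genes called in the interaction was 4 and depended on the setting, at 51 by DESeq2 (37 positive and 14 negative, with all 4 among them), 5 with upper-quartile scaling, 3 on log2(TPM + 1), 1 without a filter, 1 with 0.5 CPM in 5 mice, and 0 with RLE scaling (683 positive and 772 negative at an unadjusted p under 0.05) or limma-voom (738 and 646). It was 6 without a fold limit. It was 0 without the libraries with hepatocyte transcripts (507 and 674 at an unadjusted p under 0.05) and 1 without the follicle-rich libraries (Alpk1, with none of the 4 called), both chosen after seeing the data. At an unadjusted p under 0.05, positive genes numbered 304 and negative genes 1844 on log2(TPM + 1), so that 14.2% were positive against 51.9%, and negative genes numbered 1581 without the follicle-rich libraries. The median interaction over all genes moved by no more than 0.1 in any setting, reaching -0.07 on log2(TPM + 1). Genes called in SPF mice numbered 140 on log2(TPM + 1) and 2354 without a fold limit. Those called in ABX-treated mice numbered 98 by DESeq2, 25 on log2(TPM + 1), 32 without the hepatocyte libraries and 288 without a fold limit. Fits that each left out 1 mouse gave 0 to 14 interaction calls (14 without CD+ABX 4, 11 without CD 2, 8 without CD 4, and 0 without any 1 of CD 1, CD 5, TDD 2 to 4, CD+ABX 1 to 3, TDD+ABX 1 and TDD+ABX 4), 604 to 936 positive and 616 to 1237 negative genes, 221 to 371 calls in SPF mice and 26 to 67 in ABX-treated mice. Chac1 was called in 9 of these 20 fits (edgeR q 0.0125 to 0.0995), Igkv15-103 in 7 and Fkbp5 and Gzmk in 4 each, so that each call was lost in most of them. With all mice the 4 genes lay just under the threshold (edgeR q of 0.0433 to 0.0438). Over the 30 other settings with a fold limit, Chac1 was called in 13, Igkv15-103 in 9, Fkbp5 in 7 and Gzmk in 6. The cause was not tested.

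With the replicate block 0 genes were called in the interaction (660 positive and 603 negative at an unadjusted p under 0.05) and 30 in ABX-treated mice. The numbers do not pair the mice, since 5 of 30 pairs of same-numbered mice correlated above 0.1 (range -0.355 to 0.248) and 1 of 20 mice correlated best with its own number. Median interactions changed sign in some settings for stem cell and Wnt (17 settings), fasting fat oxidation (13), follicle (4), regulatory T cell (3), respiratory chain (2) and tryptophan pathway genes (2), and in 1 setting each for kappa, heavy chain, plasma cell, cholesterol, xenobiotic, ileal enterocyte and ribosomal protein genes. The median standard error of the interaction was 0.166 over all genes tested, and genes of low counts have wider errors.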

Other observations

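A list of 28 genes of protein folding in the endoplasmic reticulum was written after Selenos, Ficd and Xbp1 were seen among the positive genes, so its count describes the pattern it was chosen for. Of these, 21 had a positive and 0 a negative interaction at an unadjusted p under 0.05 (4.62% and 4.29% of all genes). Median diet effects were 0.19 without ABX and -0.18 with ABX. Hspa5, the chaperone BiP, was at 405 to 542 CPM in CD mice, 560 to 785 CPM in TDD mice, 923 to 1122 CPM in CD+ABX mice and 570 to 980 CPM in TDD+ABX mice (interaction 0.72 ± 0.18, SE; edgeR q = 0.138). Dnajb9, its co-chaperone, had an interaction of 0.84 ± 0.19 (edgeR q = 0.0946) and Syvn1, a ubiquitin ligase for misfolded proteins, of 0.77 ± 0.15 (edgeR q = 0.0670). The list median interaction was 0.40, and 0.19 without the follicle-rich libraries.

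Of 12 proline and ornithine metabolism genes, also listed after the values were seen, 5 had a positive and 7 a negative interaction by sign. The list median was -0.07 against 0.01 over all genes, -0.15 without CD 2 and -0.36 without the follicle-rich libraries. At an unadjusted p under 0.05, 1 member was positive and 4 were negative (4.62% and 4.29% of all genes), and 2 were positive without CD 2. The list included Oat, Aldh18a1, Pycrl and Otc (-0.21, edgeR q = 0.502) with negative interactions and Prodh, which degrades proline (0.63, edgeR q = 0.318), with a positive one. Among 5 erythroid genes, 4 had a negative interaction at an unadjusted p under 0.05 (4.29% of all genes). Hbb-bs, an adult beta globin, was at 10.8 to 20.5 CPM in CD mice, 6.17 to 13.0 CPM in TDD mice, 13.1 to 22.5 CPM in CD+ABX mice and 9.88 to 24.1 CPM in TDD+ABX mice (interaction -0.99 ± 0.34, SE; edgeR q = 0.332). The median interaction of the erythroid list was -0.99, and -0.18 without the follicle-rich libraries. Globin copies share reads. Of 10 Paneth cell genes, all had a positive interaction and 3 passed an unadjusted p under 0.05 (4.62% of all genes), including the defensin gene Defa26 (0.55 ± 0.19, edgeR q = 0.332), which fell in ABX-treated mice by 0.83 (edgeR q = 0.00491) without reaching 2-fold. The median interaction of the Paneth cell list was 0.40, and its mean log2 CPM had an SD of 0.26 between mice of a group. The 3 members that passed became 1 without the hepatocyte libraries, and 1 to 5 when 1 mouse was left out (5 without TDD+ABX 1, and 1 without any 1 of CD 1, CD 3, CD+ABX 1, CD+ABX 4, TDD 2, TDD 4, TDD+ABX 4 and TDD+ABX 5). Of 11 enteroendocrine genes, 3 had a negative interaction and 0 a positive one at an unadjusted p under 0.05 (4.29% and 4.62% of all genes), among them the hormone genes Cck (-0.57, edgeR q = 0.286) and Gcg (-0.65, edgeR q = 0.408), and 5 were negative and 1 positive without CD 2. Nuclear-encoded respiratory chain genes had a negative interaction in 68 of 80, with 7 at an unadjusted p under 0.05 (4.29% of all genes). The list median was -0.09, and the mean log2 CPM of the list had an SD of 0.10 between mice of a group. At this p 1 member was positive and 2 were negative without the hepatocyte libraries. The list median was 0.10 without the follicle-rich libraries. With 1 mouse left out the negative ones numbered 2 to 17 (17 without TDD 1, 14 without CD+ABX 5, 13 without CD 2, 4 without CD+ABX 1, CD+ABX 2 or TDD 4, and 2 without CD 3, TDD 3 or TDD+ABX 1). Cyp3a44, a drug-metabolising cytochrome, fell with TDD in ABX-treated mice (SPF -0.34, edgeR q = 0.699, and ABX -2.65, edgeR q = 0.0287), with an interaction of 2.31 ± 0.77 (edgeR q = 0.318).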
